A study of Mus musculus with 10 samples.

Results

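The Bcl2 family comprises proteins that decide at the mitochondrial outer membrane whether a cell survives or undergoes apoptosis, and 10 of its genes were followed in CD34- hematopoietic stem cells (HSCs) from mice labelled as lacking or retaining the RNase Regnase-1. The genes were taken by symbol. They were the pro-survival genes Bcl2, Bcl2l1 and Mcl1, the effectors Bax and Bak1, and the BH3-only genes Bid, Bcl2l11, Bbc3, Pmaip1 and Bmf, which makes 10 of the 33393 genes and 48 of the 95912 transcripts measured. RNA was obtained from Lin- Sca-1+ cKit+ CD34- Flt3- bone marrow cells of 8-week-old C57BL/6 mice. The Reg1Δ/Δ mice carried Vav1-iCre and the floxed Regnase-1 gene Zc3h12a (Reg1flox/flox), and the controls carried the same floxed alleles without Cre. The vav promoter elements are active throughout the blood system, so Cre is not limited to stem cells in these animals. Each group had 5 libraries, 3 in a first and 2 in a second experiment, told apart by the form of the sample names.

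Zc3h12a itself was higher in the libraries labelled Reg1Δ/Δ, with 2.08 to 3.54 TPM (transcript abundance scaled to the same total in every library) against 1.28 to 1.83 TPM in the first-experiment controls, and 8.52 to 10.3 against 1.48 to 6.07 in the second. The difference was 0.83 on the log2 scale (adjusted p = 0.0314 by limma), and neither experiment alone passed (adjusted p = 0.0527 and 0.265 by limma). The direction goes against the label, and the values per transcript do not show whether the reads lie in the deleted exons. Directions below are therefore given for the libraries as labelled. The experiments differed in composition as well. Transcripts shorter than 300 nucleotides held 32.0 to 36.4% of the TPM in the first experiment and 3.89 to 12.7% in the second. The main tests therefore had the experiment as a covariate, while some ranges and means below are given over both experiments. TPM keeps no read number, so the depth behind each value is unknown. Of 8 CD34- HSC markers, 7 were lower in the libraries labelled Reg1Δ/Δ, for example Hlf (142 to 176 and 33.9 to 89.6 TPM in the controls, 0.791 to 2.72 and 1.10 to 2.62 TPM in the labelled libraries), whereas Ly6a, which encodes Sca-1, was not called. Among all tested genes 37.9% were called lower (limma, adjusted p under 0.05). RNA of Cd34, whose protein was gated out, was present at 142 to 236 and 51.9 to 82.0 TPM in the controls and fell to 12.5 to 19.8 and 9.54 to 13.7 TPM in the labelled libraries (log2 fold change -3.02, adjusted p = 1.09e-05 by limma). Flt3, also gated out, fell as well (-2.85, adjusted p = 3.01e-06 by limma).

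In the intrinsic pathway of apoptosis, Bax and Bak1 proteins form pores in the mitochondrial outer membrane and release cytochrome c. The pro-survival proteins hold them in check, and the BH3-only proteins tip this balance by binding the pro-survival proteins or the effectors through a short helix, the BH3 segment. Mcl1 and Bcl2l1 (Bcl-xL) are known as survival genes of HSCs and of erythroid cells, respectively, and Bcl2 of lymphocytes. The BH3 core is the feature that survival and death members share and that gives the BH3-only group its name. The coding sequences of 9 members are therefore shown around it, 45 bases each, with the 6 codons of the core in capitals (leucine, any 3 residues, glycine or alanine, aspartate). The sequence of Pmaip1 is not reported here. A script searched for this core in the reading frame of the complete coding transcript with the highest mean TPM, in GENCODE M21 on GRCm38.

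Bcl2-201: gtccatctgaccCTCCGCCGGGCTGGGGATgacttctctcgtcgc
Bcl2l1-201: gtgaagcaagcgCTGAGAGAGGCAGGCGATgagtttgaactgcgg
Mcl1-201: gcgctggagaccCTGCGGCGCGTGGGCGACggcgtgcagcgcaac
Bax-201: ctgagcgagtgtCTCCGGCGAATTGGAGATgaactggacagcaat
Bak1-202: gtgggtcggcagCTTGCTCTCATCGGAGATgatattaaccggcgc
Bid-201: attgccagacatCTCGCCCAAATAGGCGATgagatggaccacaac
Bcl2l11-205: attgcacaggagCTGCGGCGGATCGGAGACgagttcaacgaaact
Bbc3-201: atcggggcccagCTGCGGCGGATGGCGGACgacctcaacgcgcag
Bmf-201: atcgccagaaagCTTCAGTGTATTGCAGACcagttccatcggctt

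Each of these 9 coding sequences held the core exactly 1 time. The match is a description, since 23.8% of 21754 mouse genes hold the same core somewhere in the longest complete coding sequence. It lay in exon 1 of Bcl2-201 (chr1:106712569-106712613, minus strand) and of Mcl1-201 (chr3:95659424-95659468, plus strand), in exon 2 of Bcl2l1-201 (chr2:152829691-152829735, minus strand), and in exon 3 of Bax-201 (chr7:45465991-45466035, minus strand), of Bcl2l11-205 (chr2:128147138-128147182, plus strand) and of Bbc3-201 (chr7:16313761-16313805, plus strand). In Bak1-202 (chr17:27022525-27022569), Bid-201 (chr6:120897283-120897327) and Bmf-201 (chr2:118545094-118545138), all on the minus strand, it lay in exon 4. The core of Bmf and that of Bbc3 hold an alanine codon (GCA and GCG) at the fifth position, and the other 7 a glycine codon.

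The 7 members with at least 1 TPM in at least 5 of the 10 libraries were tested together with all other such genes. The pro-survival genes Bcl2, Bcl2l1 and Mcl1 and the BH3-only gene Bcl2l11 fell, and Bax and Bid rose. Bbc3 did not pass the test, and Bak1, Pmaip1 and Bmf were under the filter. These 2 rises and 4 falls among 7 tested members stand beside 15.0% of all 12874 tested genes called higher and 37.9% called lower (limma, adjusted p under 0.05). In the same 6 genes the groups did not overlap in either experiment, 2 higher and 4 lower, as was the case for 12.7% (higher) and 31.4% (lower) of all tested genes. Over all tested genes the log2 fold change had a median of -0.25. This was 0.14 with quantile normalization and 0.10 with median-of-ratios scaling, so that each tested member is also given relative to the median.

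**Figure D1:**
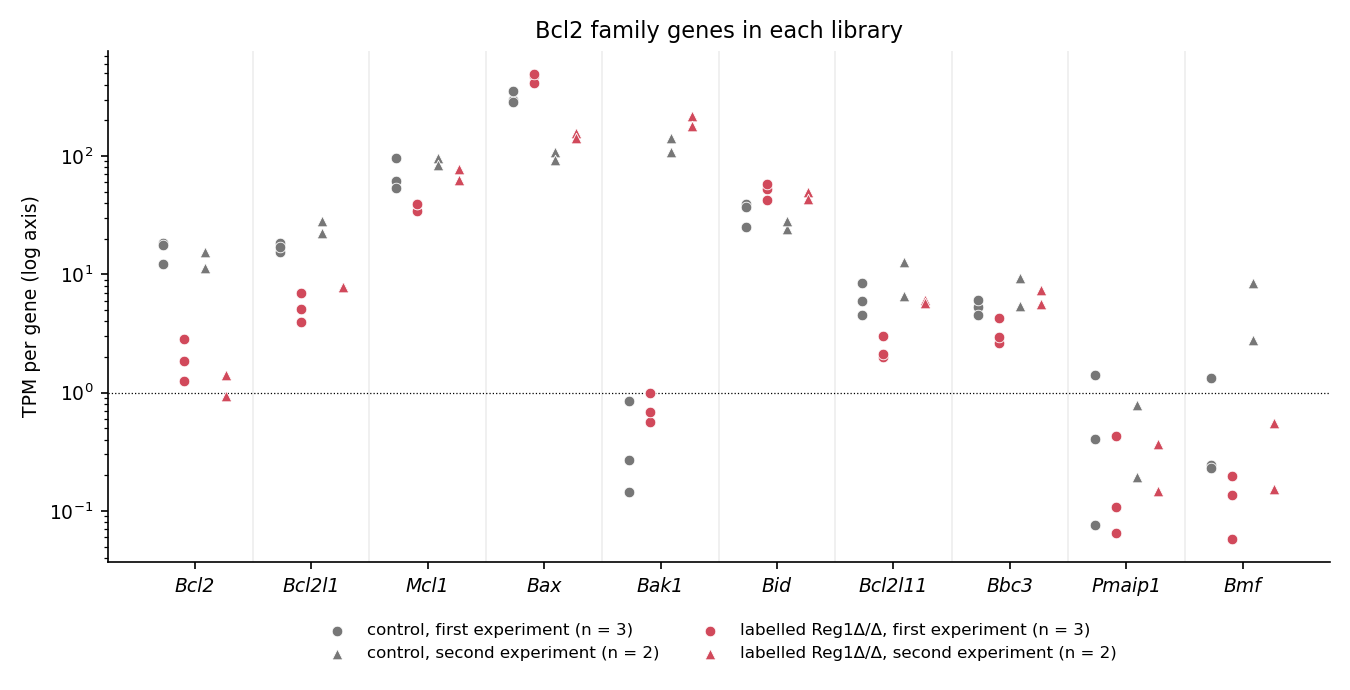
TPM of the 10 members in each library on a log axis, with controls in grey, libraries labelled Reg1Δ/Δ in red, circles for the first and triangles for the second experiment, and a dotted line at 1 TPM. Bcl2 lay between 11.3 and 18.3 TPM in the controls and between 0.945 and 2.85 TPM in the labelled libraries, and Bak1 stayed under 1 TPM in the first experiment and above 100 TPM in the second.

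The order of levels in the controls was led by Bax in the first experiment, at 313 ± 36.2 TPM (SD, n = 3). Mcl1 followed with 71.0 ± 22.8, Bid with 33.6 ± 7.54, Bcl2l1 with 17 ± 1.54 and Bcl2 with 16.1 ± 3.40 TPM. Bcl2l11 (6.30 ± 1.99) and Bbc3 (5.25 ± 0.771) were lower, and Pmaip1, Bmf and Bak1 had means under 1 TPM. Bcl2l1 overlapped with Bcl2, Bcl2l11 with Bbc3, and the last 3 with each other. In the second experiment (n = 2), Bak1 (124 TPM on average) and Bax (101) overlapped at the top, and Mcl1 (90.4) came next and overlapped with Bax. Bid (26.1) and Bcl2l1 (25.3) overlapped. Bcl2 (13.3) overlapped with Bcl2l11 (9.61), Bcl2l11 with Bbc3 (7.33) and Bbc3 with Bmf (5.65), and Pmaip1 was last (0.493).

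Bcl2, the founding pro-survival gene (ENSMUSG00000057329, chr1:106538178-106714274, minus strand), showed the largest change of the tested members. In the controls its level was 18.3, 12.2 and 17.8 TPM in the first experiment and 11.3 and 15.4 TPM in the second. The libraries labelled Reg1Δ/Δ had 1.84, 2.85 and 1.26 TPM and 1.41 and 0.945 TPM. All 5 labelled libraries were below every control. The log2 fold change was -2.61 (standard error 0.18, adjusted p = 3.08e-06 by limma), or 6.09-fold lower on the log2(TPM + 1) scale, which understates the change of low values, and it was -2.35 relative to the median of all genes. Bcl2 passed in the first experiment alone (-2.54, adjusted p = 0.00041 by limma) and in the second alone (-2.71, adjusted p = 0.0248 by limma).

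Both Bcl2 transcripts fell. Bcl2-201, the transcript of 7191 nucleotides, went from 7.99 to 11.8 TPM in the first-experiment controls to 0.816 to 1.46 TPM in the labelled libraries, and in the second from 11 to 13.9 TPM to 0.945 to 1.41 TPM (log2 fold change -2.53, adjusted p = 1.87e-05 by limma over transcripts). Bcl2-202, of 2841 nucleotides, ranged from 4.23 to 6.69 TPM in the first-experiment controls and from 0.446 to 1.39 TPM in the labelled libraries, and in the second it had 0.341 and 1.44 TPM in the controls and was listed at 0 in both labelled libraries (-1.42, adjusted p = 0.00462 by limma over transcripts). An antisense gene, D630008O14Rik, shares 558 of 9157 exonic bases with Bcl2, and whether the counting used strand is not given in the sources used here. It was listed at 0.462 to 4.67 TPM in the first-experiment controls and at 0 in the whole second experiment, and its part in the values of Bcl2 was not tested.

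Bcl2l1, which encodes Bcl-xL (ENSMUSG00000007659, chr2:152780668-152831728, minus strand), was the other member that passed in each experiment. The controls had 15.4, 18.5 and 17.1 TPM in the first experiment and 28.1 and 22.5 TPM in the second. The labelled libraries had 3.95, 5.10 and 6.96 TPM, and 7.74 and 7.83 TPM. The highest labelled library, at 7.83 TPM, was well below the lowest control, at 15.4 TPM. The log2 fold change was -1.55 (standard error 0.14, adjusted p = 1.52e-05 by limma), which is 2.92-fold lower and -1.29 relative to the median. It was -1.53 in the first experiment (adjusted p = 0.00121 by limma) and -1.57 in the second (adjusted p = 0.0272 by limma).

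The Bcl2l1 transcripts did not all pass. Bcl2l1-202 (2568 nucleotides) had 1.30 to 6.61 and 2.91 to 11.9 TPM in the controls and at most 0.595 TPM in a labelled library (log2 fold change -2.04, adjusted p = 0.00503 by limma over transcripts). Bcl2l1-201 (2417 nucleotides), with the highest mean of the gene, had 5.81 to 9.65 and 4.36 to 11.9 TPM in the controls against 2.91 to 4.28 and 3.76 to 5.56 TPM, and its log2 fold change of -0.81 did not pass (95% interval -1.40 to -0.22, adjusted p = 0.0557 by limma over transcripts). Its groups overlapped in the second experiment. Whether the change of the 2 transcripts differs was not tested.

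Mcl1, a short-lived pro-survival protein that HSCs require (ENSMUSG00000038612, chr3:95658788-95663176, plus strand), fell less. Its control values were 62.1, 97.0 and 54.0 TPM in the first experiment and 96.6 and 84.2 TPM in the second, and those of the labelled libraries were 34.5, 39.4 and 39.4 TPM and 78.3 and 63.0 TPM. Within each experiment every labelled library was below every control, but the labelled libraries of the second experiment lay within the range of the controls of the first. The log2 fold change was -0.65 (standard error 0.18, adjusted p = 0.0121 by limma), 1.57-fold lower, and -0.40 relative to the median. The call depended on the scaling and the experiment: it was -0.24 (adjusted p = 0.278 by limma) with median-of-ratios scaling and -0.36 (adjusted p = 0.244 by limma) in the second experiment alone, and the adjusted p was 0.109 by limma without the experiment as a covariate. Mcl1-201, the transcript of 3418 nucleotides, fell with a log2 fold change of -0.78 (adjusted p = 0.0146 by limma over transcripts). Mcl1-202, of 858 nucleotides, was at 0.441 to 2.67 TPM in the first experiment, while the second had 20.2 and 0 TPM in the controls and 22.6 and 14.9 TPM in the labelled libraries.

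The make-up of the pro-survival transcripts shifted within libraries, a ratio that a common factor per library, as in median-of-ratios scaling, leaves unchanged. Quantile normalization is not such a factor. It put the log2 fold changes of Mcl1 and Bcl2 at -0.55 and -1.88, in place of -0.65 and -2.61. Mcl1 held 60.7 to 76.0% of the summed TPM of Bcl2, Bcl2l1 and Mcl1 in the first-experiment controls and 82.7 to 85.6% in the labelled libraries, and 69.0 to 71.0% against 87.8 to 89.5% in the second. The share of Bcl2 was 9.57 to 20.1% against 2.65 to 6.02%, and 8.33 to 12.6% against 1.32 to 1.61%. The sum itself was 89.0 to 128 TPM in the first-experiment controls against 40.3 to 47.6 TPM, and 122 to 136 against 71.8 to 87.4 TPM in the second. Because they follow from the 3 genes above, these ranges are a description without a test of their own.

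**Figure D2:**
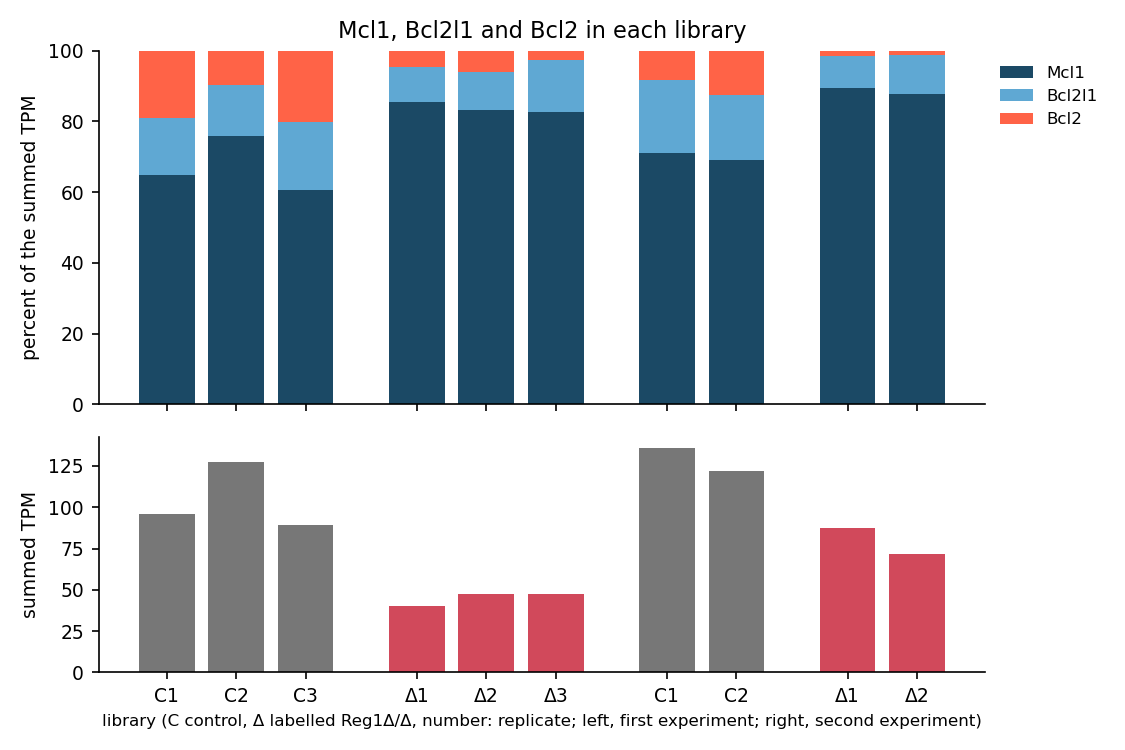
Upper panel, percent of the summed TPM of Mcl1, Bcl2l1 and Bcl2 held by each gene in each library (C, control, and Δ, labelled Reg1Δ/Δ, with the replicate number; first experiment left, second right). Lower panel, the summed TPM, which was 89.0 to 136 in the controls and 40.3 to 87.4 in the labelled libraries, with a Mcl1 share above 82% in each labelled library.

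Markers of other blood lineages moved with these falls. Their counts stand beside 15.0% of all tested genes called higher and 37.9% called lower (limma, adjusted p under 0.05). All 8 tested of 9 B lineage markers fell, and the summed TPM of the 9 was 183 to 1195 and 1368 to 1570 in the controls of the first and second experiment against 5.58 to 23.9 and 2.75 to 8.63 in the labelled libraries. Of 8 neutrophil markers 6 fell, with sums of 2979 to 5142 and 10709 to 12152 TPM against 308 to 968 and 803 to 867 TPM. All 3 tested of 5 T and NK cell markers fell as well (273 to 350 and 136 to 153 TPM against 95.5 to 147 and 38.9 to 48.4 TPM). No marker of the B and neutrophil lists was at 0 in all libraries of a group, and Cd3g of the T and NK list was at 0 in both labelled libraries of the second experiment. Of 6 erythroid markers 3 rose (Car1, Klf1 and Epor) and 2 fell (Hba-a1 and Hbb-bt), and the falls were near the share of all genes. The sums were 1055 to 3114 and 3077 to 3957 TPM against 7996 to 8718 and 6742 to 6845 TPM. In the labelled libraries most of the sum was Car1, at 7568 to 8301 and 6028 to 6243 TPM against 505 to 2709 and 1766 to 1961 TPM in the controls. The erythroid sums therefore do not stand for the whole list. Of 4 tested megakaryocyte and platelet markers, 1 rose and 3 fell, and the 5 listed summed to 237 to 452 and 92.1 to 101 TPM in the controls against 82.9 to 101 and 22.3 to 30.2 TPM. The part of these cells in the changes of the Bcl2 family was not tested, and in bulk RNA fewer cells of a type and less RNA per cell cannot be told apart.

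Bax, the effector that moves from the cytosol to mitochondria (ENSMUSG00000003873, chr7:45461697-45466898, minus strand), rose. The gene-level values were 300, 285 and 353 TPM in the first-experiment controls and 474, 413 and 493 TPM in the labelled libraries, and in the second 108 and 93.4 TPM against 155 and 143 TPM. Within each experiment every labelled library was above every control, and the experiments did not overlap. Bax changed by 0.56 on the log2 scale (standard error 0.105, adjusted p = 0.00153 by limma), 1.48-fold higher, and 0.82 relative to the median of all genes. Its size depended on the scaling, with 0.98 under median-of-ratios scaling, and 0.42 under quantile normalization, which is 0.28 relative to the median there. Both experiments gave the same size, 0.56 in the first (adjusted p = 0.0184 by limma) and 0.56 in the second, which alone did not pass (adjusted p = 0.0776 by limma). Without the experiment as a covariate the adjusted p was 0.507 by limma. Another gene on the same strand, Gm45808, shares 192 of the 1576 exonic bases of Bax and was listed at no more than 7.33 TPM.

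Most of the Bax signal of the first experiment sat in short transcripts that the annotation marks as incomplete. Bax-204, of 222 nucleotides, had 179 to 220 TPM in the controls and 246 to 321 TPM in the labelled libraries of the first experiment, which was 59.5 to 67.4% of the gene. Bax-202, of 343 nucleotides, had 50.2 to 90.3 TPM in the same controls and 104 to 115 TPM in the same labelled libraries. Both were listed at 0 in all 4 libraries of the second. In the fit over both experiments their log2 fold changes of 0.31 and 0.43 did not pass (95% intervals -0.04 to 0.66 and -0.03 to 0.88, adjusted p = 0.183 and 0.162 by limma over transcripts). That fit includes the second-experiment libraries at 0, which make these estimates smaller. In the first experiment every labelled library was above every control for each of these transcripts, and that difference was not tested alone. Bax-201, the complete transcript of 867 nucleotides, had 25.5 to 34.0 TPM in the controls and 45.1 to 49.8 TPM in the labelled libraries of the first experiment, and 81.5 to 89.9 against 120 to 137 TPM in the second. It was therefore 7.23 to 11.3% of the gene in the first and 83.1 to 88.4% in the second experiment. Bax-201 rose with a log2 fold change of 0.63 (standard error 0.13, adjusted p = 0.00831 by limma over transcripts), so the rise was present without the short transcripts. With transcripts under 300 nucleotides left out of the gene sums, an alternative added after the data were seen, Bax rose by 0.60 (adjusted p = 0.00112 by limma).

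The sequence of Bax-204 (chr7:45465189-45466775, minus strand, GRCm38) is shown because it held the largest share of Bax in the first experiment and lacks the BH3 core. It joins exon 2 of Bax-201 directly to exon 4 and leaves out exon 3, the exon of 147 bases in which the core lies. The capitals mark 10 bases on each side of this junction.

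Bax-204: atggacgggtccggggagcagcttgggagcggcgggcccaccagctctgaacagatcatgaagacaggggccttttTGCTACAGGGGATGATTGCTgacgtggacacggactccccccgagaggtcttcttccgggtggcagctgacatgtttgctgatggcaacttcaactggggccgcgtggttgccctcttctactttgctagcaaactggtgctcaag

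**Figure D3:**
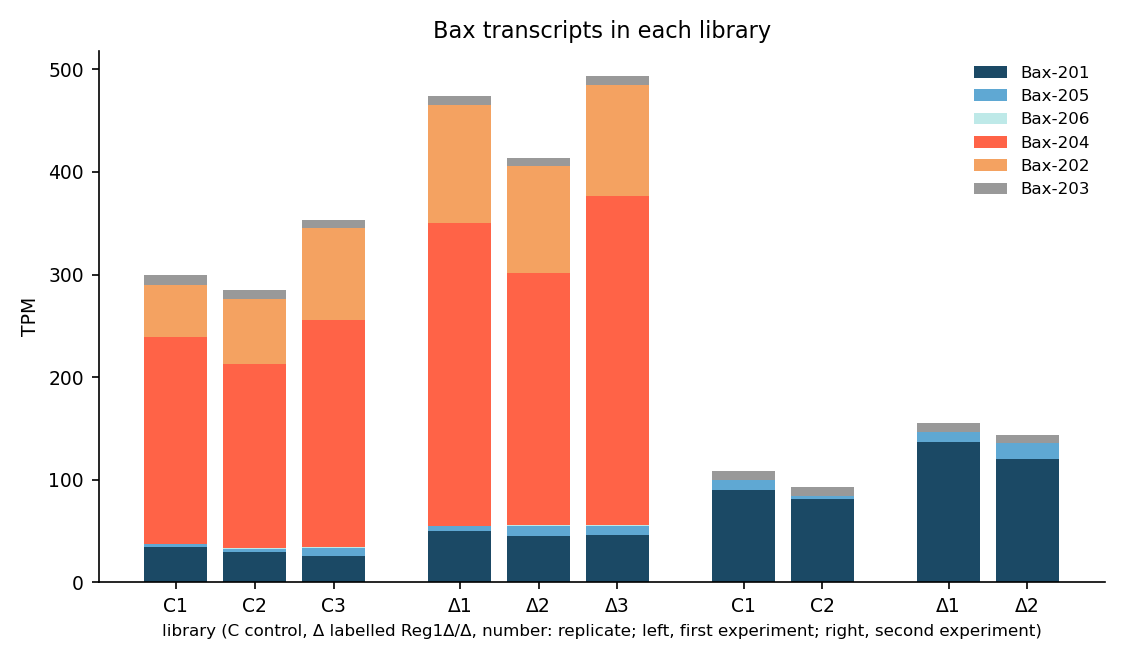
TPM of the 6 Bax transcripts stacked for each library (C, control, and Δ, labelled Reg1Δ/Δ, with the replicate number; first experiment left, second right). Bax-204 and Bax-202 fill most of the bars of the first experiment and are at 0 in the second, where Bax-201 holds 83.1 to 88.4%.

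Bak1, the effector that resides at mitochondria (ENSMUSG00000057789, chr17:27019810-27029009, minus strand), was split between the experiments. It was listed at 0.270, 0.842 and 0.145 TPM in the controls and 0.559, 0.996 and 0.692 TPM in the labelled libraries of the first experiment, and at 141 and 108 TPM against 216 and 180 TPM in the second. Of the 33393 genes, 2 (Bak1 and AC118627.1, named after its values were seen) were under 2 TPM in all 6 libraries of the first experiment and above 100 TPM in all 4 of the second, while 76 genes showed the opposite. Groups overlapped in the first experiment and not in the second. With no filter on low values, the log2 fold change of Bak1 was 0.47 (95% interval 0.09 to 0.84, adjusted p = 0.0807 by limma). In the second experiment the coding transcript Bak1-202 had 45.6 and 43.7 TPM in the controls and 89.0 and 95.9 TPM in the labelled libraries, and a processed transcript of 416 nucleotides, with the highest mean of the gene, had 88.5 and 51.6 TPM against 98.6 and 74.6 TPM. Ggnbp1, on the opposite strand, shares 437 of 2407 exonic bases with Bak1 and was listed at 0.949 to 4.33 TPM in the first experiment and at 0 to 3.61 TPM in the second.

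Bid, the BH3-only protein that caspase-8 cleaves (ENSMUSG00000004446, chr6:120891930-120916853, minus strand), rose. Controls had 39.1, 25.0 and 36.7 TPM in the first experiment and 24.1 and 28.0 TPM in the second, and the labelled libraries 53.1, 42.1 and 58.4 TPM and 49.3 and 43.1 TPM. All 5 labelled libraries were above every control. Bid changed by 0.68 on the log2 scale (standard error 0.15, adjusted p = 0.00408 by limma), 1.61-fold higher, and 0.94 relative to the median. It was 1.09 with median-of-ratios scaling and 0.88 with quantile normalization. Neither experiment alone passed, with 0.60 in the first (adjusted p = 0.0541 by limma) and 0.80 in the second (adjusted p = 0.0568 by limma). Bid-201, which held 46.7 to 100% of the gene, rose by 0.87 (adjusted p = 0.0393 by limma over transcripts). A neighbour on the opposite strand, Bcl2l13, shares 628 of 3550 exonic bases with Bid and rose too, from 17.5 to 28.2 and 38.5 to 48.0 TPM in the controls to 37.3 to 53.5 and 110 to 114 TPM, and without strand the reads of the shared stretch cannot be told apart.

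Bcl2l11, which encodes Bim, the BH3-only protein that sets cytokine-dependent survival of blood cells (ENSMUSG00000027381, chr2:128126038-128162547, plus strand), fell. Its values were 4.49, 8.44 and 5.97 TPM in the controls and 2.0, 3.02 and 2.11 TPM in the labelled libraries of the first experiment, and 6.50 and 12.7 TPM against 6.12 and 5.76 TPM in the second. Groups did not overlap within the experiments, though the nearest values in the second were 6.50 TPM in a control and 6.12 TPM in a labelled library. Bcl2l11 had a fitted log2 difference of -0.87 (standard error 0.22, adjusted p = 0.00726 by limma), 1.83-fold lower, and -0.62 relative to the median. It was lost with quantile normalization (-0.13, adjusted p = 0.652 by limma), with median-of-ratios scaling (-0.53, adjusted p = 0.0543 by limma) and in the second experiment alone (-0.55, adjusted p = 0.393 by limma), and with an adjusted p of 0.0784 by limma without the covariate. Of its 8 transcripts, Bcl2l11-205 (5036 nucleotides) passed, at 1.05 to 2.37 and 5.05 to 6.10 TPM in the controls against 0.805 to 1.05 and 1.97 to 3.12 TPM (log2 fold change -0.67, adjusted p = 0.0314 by limma over transcripts, and -0.22 with adjusted p = 0.289 after quantile normalization).

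Bbc3, which encodes the p53-induced protein Puma (ENSMUSG00000002083, chr7:16308393-16318205, plus strand), had 5.24, 6.03 and 4.49 TPM in the controls and 2.60, 2.96 and 4.26 TPM in the labelled libraries of the first experiment. In the second it had 5.42 and 9.23 TPM against 7.32 and 5.60 TPM. The groups were separate in the first experiment and overlapped in the second. The log2 fold change of -0.39, which is -0.13 relative to the median, did not pass (95% interval -0.79 to 0.01, adjusted p = 0.0944 by limma). It was -0.56 in the first experiment alone (adjusted p = 0.0434 by limma), -0.53 without the first control replicate of the second experiment (adjusted p = 0.0149 by limma), and 0.40 with quantile normalization (adjusted p = 0.0574 by limma), so that its sign depended on the scaling. Bbc3-201, the complete coding transcript, had 1.60 to 1.81 and 5.16 to 5.42 TPM in the controls and 0.843 to 0.914 and 3.10 to 3.97 TPM in the labelled libraries (log2 fold change -0.51, adjusted p = 0.0139 by limma over transcripts, and -0.09 with adjusted p = 0.609 after quantile normalization).

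Pmaip1, which encodes Noxa, the partner of Mcl1 (ENSMUSG00000024521), and Bmf, an anoikis-linked BH3-only gene (ENSMUSG00000040093, chr2:118528757-118549687, minus strand), were near the lower end of the measurement. Pmaip1 was at 0.404, 1.41 and 0.0760 TPM in the controls and 0.108, 0.427 and 0.0646 TPM in the labelled libraries of the first experiment, and at 0.791 and 0.195 TPM against 0.148 and 0.371 TPM in the second. Groups overlapped in both. Bmf was at 1.32, 0.243 and 0.229 TPM against 0.135, 0.198 and 0.0582 TPM, and at 2.80 and 8.50 TPM against 0.555 and 0.154 TPM. Its groups did not overlap, but most values were under 1 TPM. With no filter on low values the log2 fold changes were -0.31 for Pmaip1 (adjusted p = 0.423 by limma) and -1.13 for Bmf (95% interval -2.08 to -0.18, adjusted p = 0.0951 by limma). The highest transcript of Pmaip1 was Pmaip1-201, its only one, and that of Bmf was Bmf-203, of 374 nucleotides, which was above 0 in 4 libraries.

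Taken by experiment, 1 of the 7 tested members was called higher and 5 lower in the first alone, beside 12.0% and 38.3% of all tested genes. In the second alone, with 2 libraries a group, 0 were called higher and 2 lower, beside 3.51% and 12.3% of all tested genes. Bax and Bid, the 2 members with a rise at an unadjusted p under 0.05, had unadjusted p-values of 0.0185 and 0.0102 by limma there. Whether the effect differed by experiment was tested with an interaction term, which was called for 0 of the 7 members (lowest adjusted p = 0.613 by limma, for Mcl1; no member had an unadjusted p under 0.05) and for 0.443% of all tested genes. The intervals of that difference were wide, for example -1.05 to 0.69 on the log2 scale for Bcl2 and -0.28 to 1.28 for Mcl1.

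**Figure D4:**
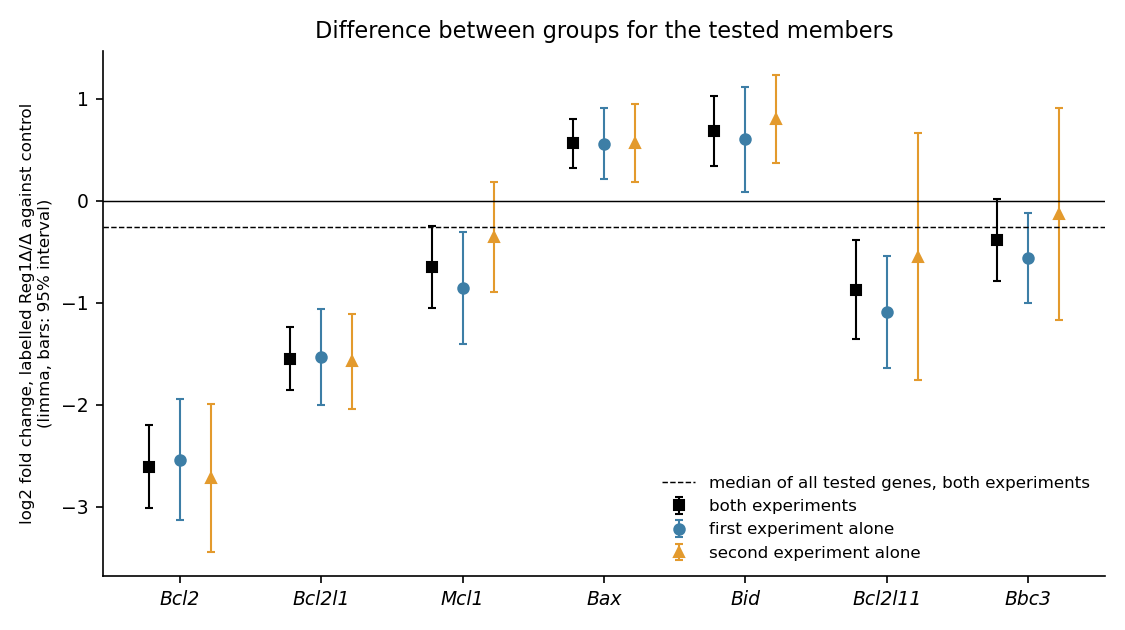
Log2 fold change of the 7 tested members between libraries labelled Reg1Δ/Δ and controls with 95% intervals (limma), for both experiments together (squares), the first alone (circles) and the second alone (triangles), with a dashed line at the median of all tested genes, -0.25. Bcl2 and Bcl2l1 lie well below the line and Bax and Bid above 0 in each, while Bcl2l11 and Bbc3 have wide intervals in the second experiment.

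At the transcript level, 17 of the 48 transcripts of the members were tested, and 2 rose (Bax-201 and Bid-201) and 6 fell (both Bcl2 transcripts, Bcl2l1-202, Mcl1-201, Bcl2l11-205 and Bbc3-201). Of all 31937 tested transcripts, 6.40% rose and 14.9% fell. This split depended on the scaling, with 3595 higher and 3335 lower transcripts after quantile normalization against 2044 and 4761 with TPM as deposited. Of the members' transcripts 2 were then higher and 4 lower, as Bcl2l11-205 and Bbc3-201 lost their calls. An interaction with the experiment was called for 0 of the 17, beside 470 positive and 170 negative calls among all 31937 tested transcripts. An unadjusted p under 0.05 for it by limma was found for 0 of the 17 and for 4773 of all tested transcripts. The share of a gene held by protein-coding transcripts, a ratio within each library, was compared for the 5 tested members that also have other transcripts. For Bcl2l1 it was 94.6 ± 6.34% in the controls and 96.5 ± 5.41% in the labelled libraries, for Bid 86.8 ± 17.8% and 94.6 ± 5.08%, for Bcl2l11 76.6 ± 17.7% and 80.8 ± 5.07%, and for Bbc3 60.3 ± 23.3% and 61.2 ± 26.2% (SD, n = 5). Each SD spans both experiments and includes their difference. For Bbc3 the first and second experiment had 38.7 to 56.1% and 55.9 to 100% in the controls, and 37.3 to 46.3% and 87.9 to 91.4% in the labelled libraries. Bax was above 99% throughout. This share counts every transcript annotated as protein-coding, also incomplete ones such as Bax-204 and Bax-202. The complete Bax-201 held 7.23 to 11.3% of the gene in the first experiment. No difference passed, and 0 of the 5 had an unadjusted p under 0.05 (two-sided exact permutation test within experiments, adjusted p = 0.983 in each case, with 0.0167 the smallest p that the 120 assignments allow).

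**Figure D5:**
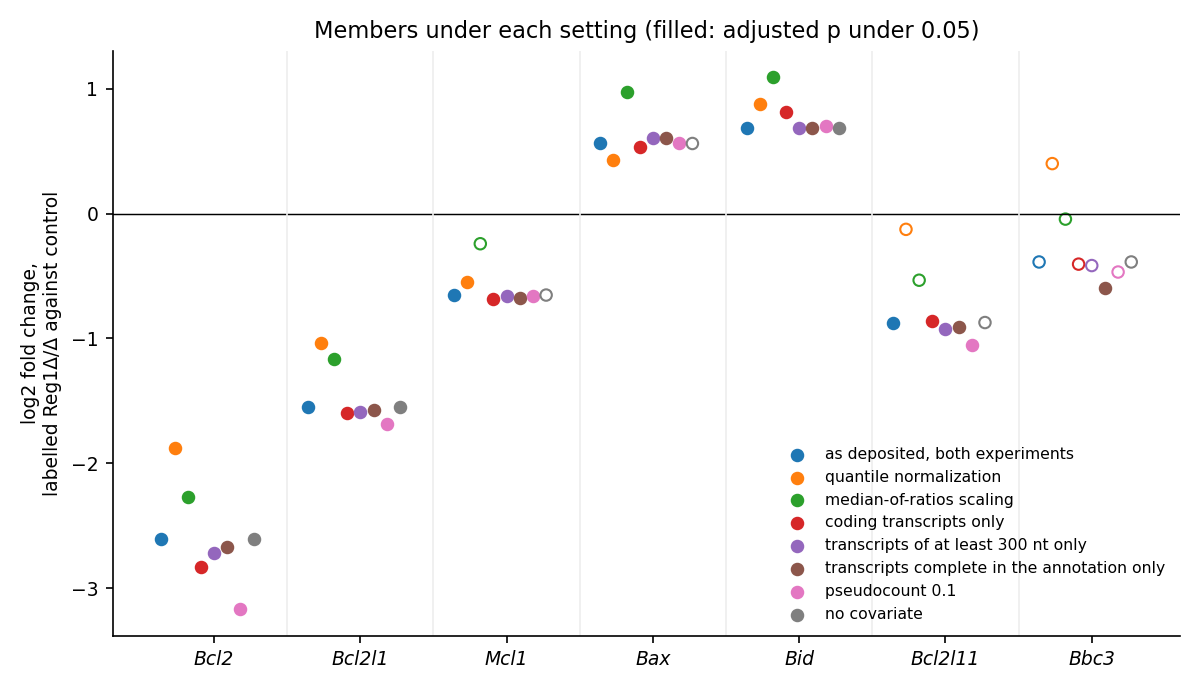
Log2 fold change of the 7 tested members with TPM as deposited and under the other settings in the legend, all with both experiments together, filled where the adjusted p was under 0.05. In these settings Bcl2, Bcl2l1 and Bid are filled and Bax is filled in all but that without a covariate, whereas Bbc3 lies at -0.39 with TPM as deposited and at 0.40 with quantile normalization.

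Other genes of the apoptosis pathway were read from lists by role. The counts called in each list stand beside 15.0% of all tested genes called higher and 37.9% called lower, and the list medians beside -0.25 for all tested genes. Values are those with TPM as deposited, and the sizes depended on the scaling. With median-of-ratios scaling, for example, Mdm2 was at -0.38 in place of -0.78, Trp53 at 0.89 in place of 0.47 and Ccng1 at 0.79 in place of 0.39, and with quantile normalization Cflar was at -0.62 in place of -1.05 and Foxo1 at -1.15 in place of -1.93. Of 8 pro-survival genes 3 were tested, the members described above, and all 3 fell. Bcl2l2, the Bcl2a1 genes and Bcl2l10 were under the filter or not listed. Of 3 effectors Bax and Bok were tested, and Bok fell from 2.72 to 13.7 and 10.3 to 12.0 TPM in the controls to 0.138 to 0.707 and 0.0569 to 0.276 TPM (log2 fold change -2.96, adjusted p = 0.000109 by limma). Of 8 BH3-only genes 4 were tested, 1 rose and 1 fell, with a median log2 fold change of -0.11, but 2 rose and 0 fell both with quantile normalization (0 falls also at an unadjusted p under 0.05) and with median-of-ratios scaling (1 fall at an unadjusted p under 0.05, by limma). Of 7 tested genes listed as BH3-like or other Bcl2 relatives, Bcl2l13, a mitophagy receptor, rose (1.09, adjusted p = 0.000502 by limma). The hypoxia gene Bnip3 (-1.0, adjusted p = 0.000643 by limma) and Bcl2l14 (-1.20, adjusted p = 0.000604 by limma) fell, though Bcl2l14 lost its call with quantile normalization (-0.38, adjusted p = 0.18 by limma).

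Cycs, which encodes cytochrome c, rose from 27.1 to 37.0 and 35.8 to 37.3 TPM in the controls to 47.4 to 83.9 and 52.7 to 54.7 TPM (log2 fold change 0.73, adjusted p = 0.00494 by limma). The initiator caspases Casp8 (-0.76) and Casp2 (-0.98) fell under each scaling.

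Of 7 inhibitors of apoptosis proteins and their antagonists 2 rose and 3 fell (median -0.54), and the falls were near the share of all genes. Birc3, an inhibitor induced by NF-kB, went from 28.3 to 34.2 and 15.0 to 15.9 TPM to 8.48 to 11.5 and 4.33 to 5.80 TPM (log2 fold change -1.50, adjusted p = 6.58e-06 by limma). Xiap, a direct caspase inhibitor, fell by 0.86 on the log2 scale, but by 0.16 without a call after quantile normalization, and Htra2, a mitochondrial protease, rose by 0.80. Of 7 death receptors and adaptors 0 rose, also at an unadjusted p under 0.05 by limma, and 3 fell (median -0.42), again near that share. Among them Tnfrsf1a, the main TNF receptor, went from 45.9 to 72.7 and 42.9 to 61.7 TPM to 9.97 to 15.9 and 7.89 to 8.07 TPM (-2.27, adjusted p = 1.19e-05 by limma), and Cflar, the caspase-8 inhibitor, fell by 1.05 on the log2 scale.

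Of 8 tested genes among p53 and its targets 3 rose and 3 fell, with a median of 0.19 against -0.25 for all tested genes. Trp53 itself rose from 209 to 274 and 180 to 199 TPM to 327 to 352 and 250 to 282 TPM (log2 fold change 0.47, adjusted p = 0.00401 by limma), as did Aen (0.63) and Ccng1 (0.39). Its targets Cdkn1a, the cell cycle inhibitor p21 (-2.50), Trp53inp1 (-2.58) and Mdm2, the ligase that degrades p53 (-0.78), fell, each with groups that did not overlap in either experiment. Of 9 genes listed for their action on the family, such as turnover, transcription or anchoring, 2 rose and 2 fell. Their median of -0.25 equals that of all tested genes, and the largest fall was that of Foxo1, a FoxO transcription factor (-1.93, adjusted p = 4.46e-05 by limma). Vdac2, the channel that anchors Bak1 at mitochondria, rose by 0.60 and Dynll1 by 0.52.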

How the data were processed

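RNA of CD34- HSCs was sequenced with Nextera XT libraries, for which the labels name the SMART-Seq v4 kit and the study the SMARTer v3 kit. The authors used STAR with GRCm38 for alignment and Salmon 0.9.1 with GENCODE M17 for quantification, and the deposited value of each transcript is log2(TPM + 1). This was converted back to TPM and added up per gene. The values of the second labelled library of the second experiment carried the name of the first in their header, but differed from them, and were kept. The test was that of limma 3.58.1 (R 4.3.3) on log2(TPM + 1), a pseudocount of 1, for genes that reached 1 TPM in 5 or more of the 10 libraries, with the experiment as a covariate, and p was adjusted by Benjamini-Hochberg over all tested genes (threshold 0.05). Transcripts were tested alike. The scripts were tested on simulated data. Coordinates and sequences are from GENCODE M21 on GRCm38, credited to GENCODE. Alternatives were other filters, pseudocounts, scalings, transcript sets and covariates, each experiment alone and each library left out.

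All 10 members were named. Of the other genes in the lists, up to 3 with the largest rise and 3 with the largest fall per list were eligible if they passed and the groups did not overlap in either experiment. Transcripts were named if highest in their gene or called. Other genes, and values of Ly6a, Gm45808, Ggnbp1 and D630008O14Rik, were chosen after their values were seen. Members and lists were chosen with earlier results of these data known. Where nothing links libraries to separate mice, p-values measure the spread between libraries. Protein sequences were not used here. Some genes of the lists, and the counts of the list that holds them, are not reported here.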

Additional observations from a re-analysis of the deposited data

How the results depend on the processing

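Of the called members, Bcl2l1 kept its direction and call under all 23 alternatives and Bcl2 under the 22 in which it was tested, since a TPM of at least 1 in every library removed it. Bax and Bid each lost the call under 2 alternatives, Mcl1 under 3 and Bcl2l11 under 4, all without a change of sign, and the cause was not tested. Without the covariate 1 member was higher and 2 were lower, and 716 and 3052 of all tested genes. The first experiment alone gave 1 higher member, and the second alone 0 higher and 2 lower members, with 452 higher and 1581 lower genes. Quantile normalization gave 3861 higher and 2636 lower genes, so that 59.4% of the calls were rises against 28.4% with TPM as deposited, and it turned Bbc3 to 0.40. Median-of-ratios scaling gave 4334 higher and 3245 lower genes (57.2% rises) and 2 lower members. With each library left out in turn, 2 members were higher and 4 to 5 lower, and 1548 to 1961 genes were higher and 4409 to 5242 lower. The fifth lower member was Bbc3, without the first control replicate of the second experiment. The 2 transcript sets chosen after seeing the data, transcripts of at least 300 nucleotides and transcripts complete in the annotation, brought Bak1 over the filter, and it was then called higher (0.53, adjusted p = 0.0336, and 0.48, adjusted p = 0.0400, by limma), and the latter set also called Bbc3 lower (-0.60, adjusted p = 0.00814 by limma).

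The replicate numbers of the labels did not pair the libraries by the check used: deviations from the group means correlated at 0.03, 0.18 and 0.07 in the first experiment and at -0.05 in the second. A block for the replicate number left the 2 higher and 4 lower members called, beside 1703 higher and 4545 lower genes. With it 1 transcript of the members was called higher and 4 lower, in place of 2 and 6, with Bid-201 (adjusted p = 0.0689), Bcl2l11-205 (0.0853) and Bbc3-201 (0.0543, all by limma) no longer called. Of all 31937 tested transcripts 1263 were then higher and 3568 lower, in place of 2044 and 4761. Zc3h12a had an adjusted p of 0.0314 by limma, and 0.0505 with the block. Its call was also lost with no filter (0.0897), without the covariate (0.214), in each experiment alone (0.0527 and 0.265), and without the second control or the first labelled replicate of the first experiment or either labelled replicate of the second. With each library left out in turn its log2 fold change was 0.53 to 0.99 and its adjusted p 0.0121 to 0.0768. It was larger with quantile normalization (1.73, adjusted p = 0.000174), median-of-ratios scaling (1.13, 0.00455) and coding transcripts only (0.998, 0.00398, all by limma).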
